A study of Mus musculus with 3 samples.

Results

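GFP low cells were compared with GFP negative cells sorted from the same kind of culture, 1 array of each. Both were derived from Hb9-GFP mouse embryonic stem cells, a line in which green fluorescent protein reports on Hb9, the motor neuron homeodomain factor encoded by Mnx1. The stem cells were kept on feeder cells in serum and turned toward motor neurons as embryoid bodies exposed to retinoic acid and purmorphamine, a compound that switches on Hedgehog signalling, and all sorted populations share this line and treatment. A GFP high array, titled as motor neurons in the labels, completes the series of 3 arrays and its values are set beside the others. The labels do not give the day of sorting, the sort gates, or whether the populations came from 1 culture. The genes compared were those with a detection p-value under 0.01 on the GFP low or the GFP negative array, which were 8516 of the 16593 genes with a named probe.

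In the embryonic spinal cord, graded Hedgehog signalling divides ventral progenitors into domains that give rise to motor neurons and to the V0, V1, V2 and V3 classes of interneurons. Notch signalling holds cells as dividing progenitors, and cells released from it leave the cell cycle and switch on neuronal genes. V1 interneurons are inhibitory and carry the homeodomain factor En1. The V2 domain gives rise to excitatory V2a cells and to inhibitory V2b cells, which carry Gata2, Gata3 and Tal1. Embryoid bodies can also hold cells that are not neural, such as extraembryonic endoderm, which lays down a basement membrane, and primitive blood cells, which make embryonic globins.

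GFP low cells had higher signal for neuronal genes, among them those of V1 and GABA-using interneurons. GFP negative cells had higher signal for several basement membrane genes and for some endoderm and embryonic globin genes. By smaller folds they also had higher signal for genes of progenitors and of dividing cells. Of the genes compared, 4 of 13 endoderm genes and 1 of 4 globin genes were detected on both arrays. Most of the others were detected in GFP negative cells only, so their direction is no finding. En1 was 7.47-fold higher in GFP low cells, the widest difference on that side among genes detected on both arrays. Its GFP negative signal of 5.47 was near the detection limit, so this fold and rank depend on the background correction. Col4a1, a chain of the type IV collagen of basement membranes, was 16.3-fold lower in GFP low cells, the widest on the other side. All signals below are background-corrected, quantile-normalized values on a log2 scale, and each difference is GFP low minus GFP negative.

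Of the 8516 genes, 287 (3.37%) were at least 2-fold higher in GFP low cells and 228 (2.68%) at least 2-fold lower. These shares are the background for every count below. The median difference was -0.02, with quartiles at -0.32 and 0.27. There were 7704 genes detected on both arrays, 373 on the GFP low array only and 439 on the GFP negative array only. A gene detected on only 1 array had to be brighter there, so its direction is no finding. Of the genes past 2-fold, 60 of those higher and 62 of those lower were not detected on the dimmer array. For such a gene only a minimum fold is given, worded as at least so many fold. The bright signal is then set against the dim one, or against the lowest detected signal of the dimmer array (5.13 in GFP low, 5.14 in GFP negative) where that is higher. With these genes at that bound, the counts were 249 higher and 187 lower. Larger folds were fewer: at those bounds, 19 genes on the higher side and 18 on the lower were past 4-fold, and 0 and 5 past 8-fold. Without bounds these counts were 23 and 20, and 0 and 6. At the edge of 2-fold stood Ip6k2 at 2.004-fold, just inside, and Hoxb8 at 1.996-fold, just outside, on the higher side, and Ercc6l at 1.996-fold, just outside, on the lower side. H4c14, just inside on the lower side, was not detected in GFP low cells and is counted at 2.005-fold without bounds, but is at least 1.62-fold lower by its bound.

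**Figure D1:**
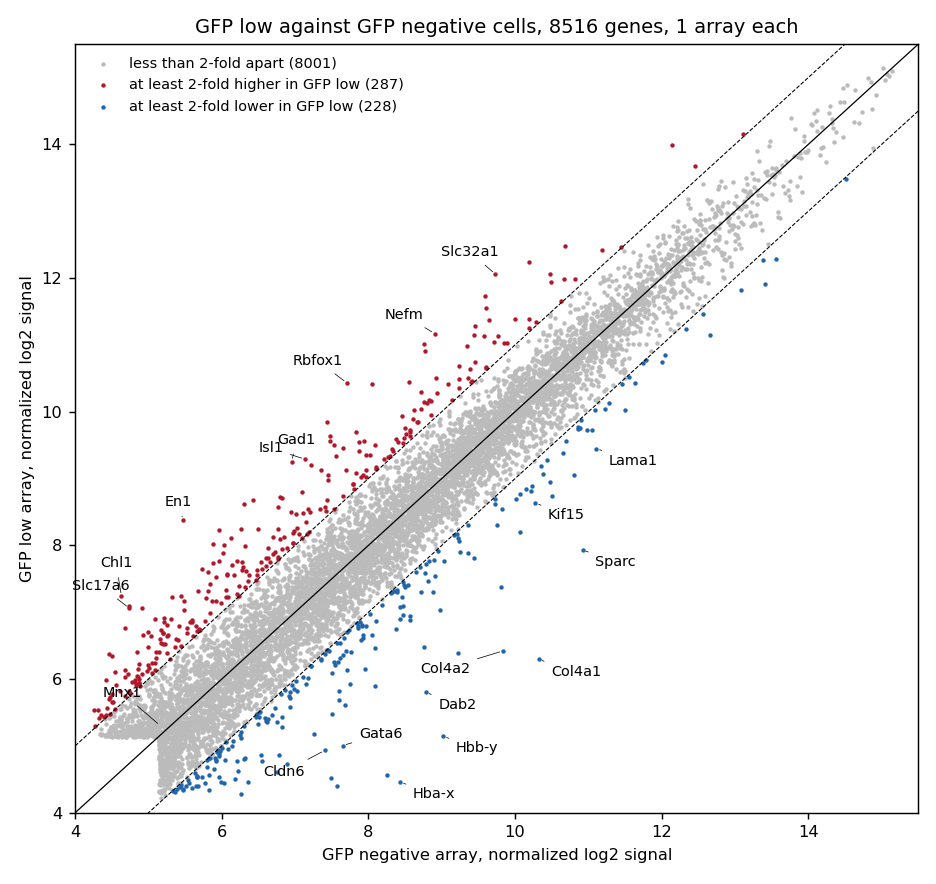
Normalized log2 signal of 8516 genes on the GFP negative array (horizontal axis) and the GFP low array (vertical axis), 1 point per gene. Dashed lines mark 2-fold, red points are the 287 genes higher in GFP low cells and blue points the 228 lower, and the points farthest below the diagonal are type IV collagen and globin genes.

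There was no replicate of either population, so no difference has a replicate check, a test or a p-value. To gauge technical spread, the 2 brightest detected probes of each of 2275 genes were compared. The SD of a single probe's difference was 0.285 on the log2 scale, and 4105 genes (48.2%) differed by less than that between the arrays. In 100 of these genes the brightest probe differed at least 2-fold. The other probe shared the sign in 96 of the 100, was itself at least 2-fold apart in that direction in 50, and was at least 2-fold apart in the other direction in 0. This gauge covers the choice of probe and leaves out what all probes of an array share, such as amplification, hybridisation, culture and sort. The arrays were alike in brightness, with a median non-normalized intensity of 109.9 in GFP low and 108.1 in GFP negative, and 11727 and 11689 probes detected. Reference genes had a median difference of 0.04 over 8 members, from -0.64 for B2m to 0.57 for Actb, with 0 past 2-fold. The probes of Actb disagreed, with others between -1.30 and 0.94.

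**Figure D2:**
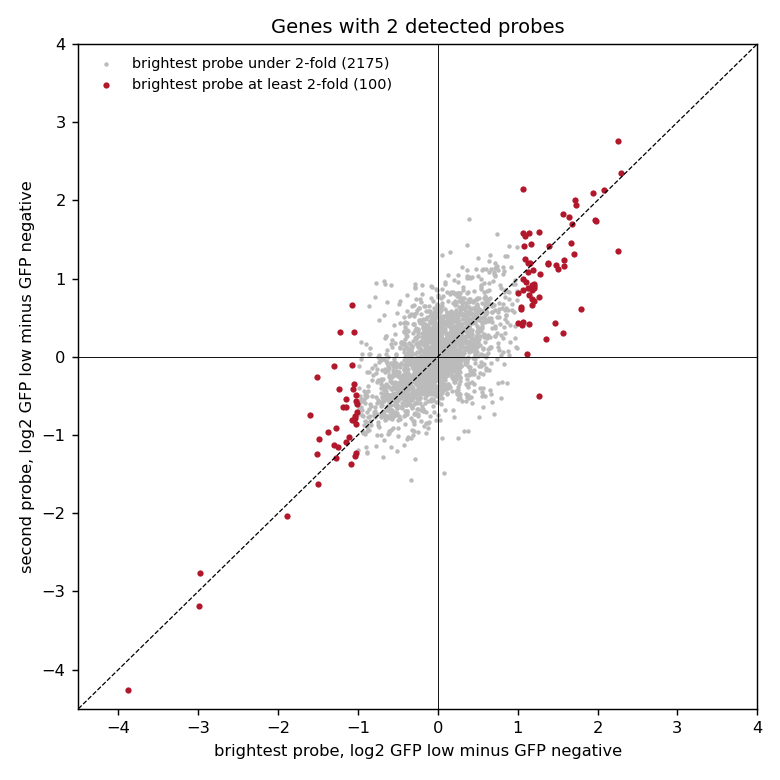
Difference in log2 signal, GFP low minus GFP negative, by the brightest probe (horizontal axis) and the second brightest detected probe (vertical axis) of 2275 genes, 1 point per gene. Red points are the 100 genes whose brightest probe was at least 2-fold apart, of which 96 have the same sign on both axes, and the dashed line marks equal values.

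Mnx1, the gene that the reporter stands for, had a signal of 5.30 on the GFP low, 5.16 on the GFP negative and 7.99 on the GFP high array. Its difference of 0.14 is within the between-probe SD, and both signals lie close to the lowest detected signal. Its only probe therefore does not separate the populations compared. Other factors of the motor neuron programme differed more. The LIM homeodomain factor Isl1, needed to form motor neurons and also expressed in some interneurons, had signals of 9.29 in GFP low, 7.14 in GFP negative and 12.70 in GFP high cells. Isl1 was thus 4.44-fold higher in GFP low than in GFP negative cells, and still far under its GFP high signal. Onecut2, a cut homeodomain factor of motor neurons and several interneuron classes, was 3.70-fold higher, with nearly the same signal in GFP low (10.44) and GFP high cells (10.45). Ebf3, a factor of differentiating neurons, was 2.45-fold higher. The motor neuron LIM factors Lhx3 and Lhx4 were 1.74-fold and 1.61-fold higher, and Ebf2, Foxp1, Ebf1 and Lmo4 differed by 1.24-fold or less. In all, 10 factors of the list were detected, with 3 past 2-fold on the higher side, 0 on the lower side and a median difference of 0.50.

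Genes of acetylcholine transmission were dim in both populations. Chat, which makes acetylcholine, had a signal of 6.74 in GFP low, 5.70 in GFP negative and 11.35 in GFP high cells. Slc18a3, which loads acetylcholine into vesicles, had 6.85, 5.60 and 10.96 in the same order. Both were higher in GFP low than in GFP negative cells, Chat by 2.05-fold and Slc18a3 by 2.38-fold, and both were far below GFP high cells. Slc10a4, a vesicle transporter of cholinergic neurons, was 2.05-fold higher and the axon guidance ligand Slit2 2.22-fold higher. The GDNF co-receptor Gfra1 was at least 1.74-fold higher, and its partner, the receptor kinase Ret, 1.65-fold higher. The list of cholinergic and effector genes had 8 detected members and a median of 1.04 (0.92 with bounds). Of these genes, 5 were past 2-fold on the higher side (4 with bounds) and 0 on the lower. Without the background correction the list median was 0.39, so its size depends on that step. The summed linear signal, less the offset, of the 11 genes with a probe was 5513 in GFP low, 4827 in GFP negative and 17580 in GFP high cells. Most of it on the arrays compared was Agrn, the synapse organiser agrin, at 4507 and 4408, and the other 10 genes summed to 1006, 420 and 11260. Slc5a7, Ache and Prph were not detected on either array compared.

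Genes of V1 interneurons and of GABA transmission were higher in GFP low cells in every detected case. All 7 detected members were detected on both arrays and all 7 were at least 2-fold higher in GFP low cells, with a median of 2.05. En1, the factor that defines V1 cells, had a signal of 8.37 in GFP low, 5.47 in GFP negative and 9.27 in GFP high cells. En1 was thus near the detection limit in GFP negative cells, well above it in GFP low cells and 1.86-fold higher again in GFP high cells. Gad1, the enzyme that makes GABA, had signals of 9.25, 6.95 and 9.58 in GFP low, negative and high cells. It was 4.91-fold higher in GFP low than in GFP negative cells, and its second probe gave a difference of 2.35 against 2.30. Slc32a1, which loads GABA and glycine into vesicles, had signals of 12.06, 9.73 and 12.00 and was 5.01-fold higher. Gad1 and Slc32a1 thus stood at about the same level in GFP low and GFP high cells, with GFP negative cells below both.

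The other V1 factors differed in the same direction as En1. Lhx1, a LIM homeodomain factor of several ventral and dorsal interneuron classes and of some motor neurons, had signals of 12.24, 10.19 and 12.69 in GFP low, negative and high cells and was 4.13-fold higher in GFP low than in GFP negative cells. Its close relative Lhx5 was 2.66-fold higher, with its highest signal in GFP low cells (10.03 against 8.62 in GFP negative and 9.43 in GFP high). The paired-box factors Pax8 and Pax2, early genes of inhibitory interneurons, were 3.75-fold and 2.93-fold higher. The summed linear signal of the 12 genes of the list with a probe was 11370 in GFP low, 2615 in GFP negative and 13350 in GFP high cells, a ratio of 4.35 between the arrays compared. Foxp2, Foxd3 and Calb1, other genes of V1 cells, were not detected on either array, and neither were Gad2, the second GABA-making enzyme, nor Slc6a5, the glycine transporter of glycinergic neurons. In sorted bulk samples, fewer cells of a type and less RNA per cell cannot be told apart. The gate name alone therefore does not make GFP low cells V1 cells: motor neuron, V1 and V2 genes were all detected on the same array, and their parts were not tested.

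Factors of the V2 lineage split between those of progenitors and those of later cells. Gata3, a zinc finger factor of V2b interneurons, had a signal of 9.13 in GFP low, 7.69 in GFP negative and 7.08 in GFP high cells and was 2.71-fold higher in GFP low than in GFP negative cells. Its partner Gata2 had signals of 10.44, 9.40 and 7.81 and was 2.06-fold higher. Tal1, which forms a complex with both, was 1.83-fold higher, and Lmo2, the adaptor protein of that complex, 3.49-fold higher. Gata2, Gata3 and Tal1 were thus brightest on the GFP low array of the 3, while Lmo2 had its highest signal in GFP high cells (8.99 against 8.57 in GFP low). Foxn4, which acts in V2 progenitors ahead of these genes, was 1.50-fold lower in GFP low cells, with signals of 9.08 in GFP low, 9.67 in GFP negative and 6.50 in GFP high cells. Vsx1, a homeodomain factor of V2 precursors, was 1.54-fold lower. The 8 detected V2 genes had a median of 0.96 (0.63 with bounds), with 4 past 2-fold on the higher side (3 with bounds) and 0 on the lower. Gata2, Tal1 and Lmo2 also act in blood cell precursors, and the part of such cells in these signals was not tested.

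Evx1, a homeodomain factor of V0 interneurons, was 2.37-fold higher in GFP low cells, with signals of 10.48 in GFP low, 9.24 in GFP negative and 8.52 in GFP high cells. Dbx1, which acts in the progenitors of V0 cells, had signals of 11.22, 11.50 and 8.68 and a difference of -0.27, within the between-probe SD. Thus Evx1 and Dbx1 repeat the order of Gata3 and Foxn4, the later factor higher in GFP low cells and the progenitor factor not. Tlx3, a factor of dorsal excitatory neurons, was at least 1.94-fold higher, and Pou4f1, of sensory and dorsal neurons, 1.68-fold higher. The other 10 of the 14 V0, V3 and dorsal factors with a probe were not detected, among them Sim1, the defining factor of V3 cells, and Lbx1 and Pax7.

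Of the genes of other transmitters, 2 were detected on both arrays, Sst and Ddc, and they differed in opposite directions. Slc17a6, the vesicular glutamate transporter of spinal excitatory neurons, had a signal of 7.06 in GFP low and 5.19 in GFP high cells, and its signal of 4.74 in GFP negative cells was not above the detection limit. It was at least 3.79-fold higher in GFP low than in GFP negative cells. Sst, the peptide somatostatin, was 4.48-fold higher, with 9.64 in GFP low, 7.47 in GFP negative and 9.74 in GFP high cells. Th, the first enzyme of catecholamine synthesis, was at least 3.09-fold higher. Ddc, which acts after Th, was 1.58-fold lower and the peptide gene Npy at least 1.59-fold lower. Of 5 detected genes, 3 were past 2-fold on the higher side and 0 on the lower, but Slc17a6 and Th were detected in GFP low cells only. The 6 others with a probe were not detected on either array, and the list median was 2.09 over the detected genes and 0.20 with undetected ones kept in.

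**Figure D3:**
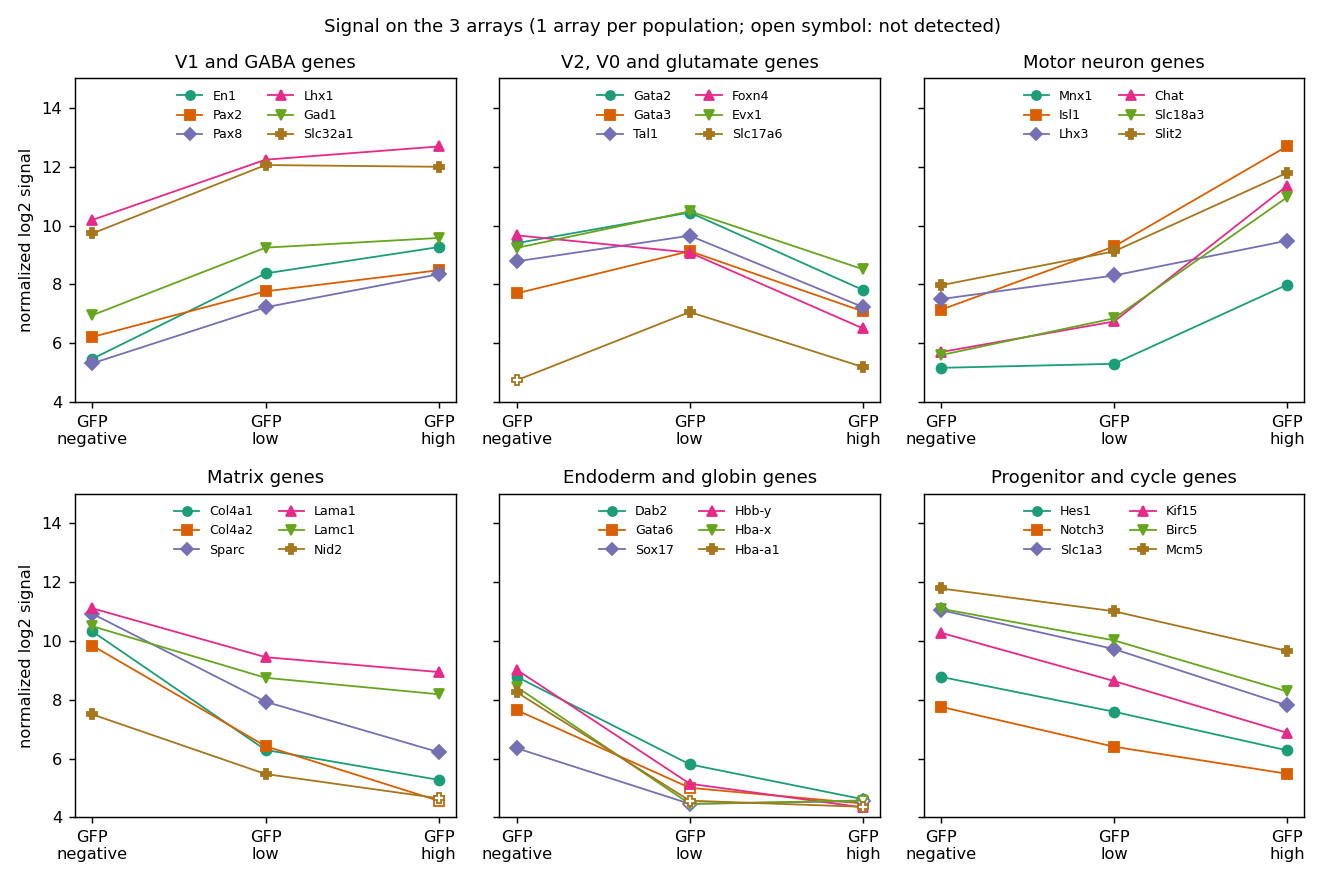
Normalized log2 signal (vertical axis) of 36 genes on the GFP negative, GFP low and GFP high arrays (horizontal axis), 1 array per population, with an open symbol where the gene was not detected. En1, Gad1 and Slc32a1 are low on the GFP negative array only, Gata2, Gata3, Evx1 and Slc17a6 peak on the GFP low array, Chat and Slc18a3 are high on the GFP high array only, and the matrix, endoderm and globin genes are highest on the GFP negative array.

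General neuronal genes were higher in GFP low cells by folds that varied widely. All 21 detected pan-neuronal and axonal cytoskeleton genes had a positive difference and were detected on both arrays. Of these, 12 were at least 2-fold higher, with a median of 1.09. Mapt, the microtubule-binding protein tau, was 5.14-fold higher, the medium neurofilament gene Nefm 4.79-fold, and Stmn4 and Stmn2, which destabilise microtubules in growing axons, 4.77-fold and 4.42-fold. The tubulin gene Tubb4a was 3.81-fold higher, the intermediate filament gene Ina 3.10-fold, the migration gene Dcx 2.30-fold and the NeuN gene Rbfox3 2.19-fold. At the other end, Tubb2b, a tubulin of migrating neurons, differed by 1.09-fold by its brightest probe, with other probes between 0.54 and 1.13. Dimmer probes of Map1b gave differences between -0.76 and 0.51, against 0.77 for its brightest. The list members Tubb3, Nefl and L1cam were not detected on any of the 3 arrays.

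The 16 detected genes of synaptic and secretory vesicles had a median of 0.83, with 7 at least 2-fold higher and 0 lower. The granule proteins Scg2 and Chgb were 3.66-fold and 3.36-fold higher, the calcium sensors Syt1 and Syt4 3.48-fold and 2.54-fold, and Rab3a, a vesicle GTPase, 2.62-fold. Syp and Cplx2 differed by 1.25-fold and 1.08-fold. The 11 detected channel and receptor genes had a median of 0.97 (0.70 with bounds), with 5 past 2-fold on the higher side (4 with bounds) and 0 on the lower. Glra2, the glycine receptor subunit of embryonic neurons, was at least 3.80-fold higher. The nicotinic receptor subunits Chrnb2 and Chrna3 were 2.98-fold and 2.59-fold higher, and the AMPA receptor subunit Gria2 2.31-fold. Axon guidance and adhesion genes differed less, with a median of 0.34 over 16 members and 2 at least 2-fold higher. These were Chl1, an adhesion molecule of the L1 family, at least 4.29-fold, and Cntn1, a contactin, 2.80-fold. The Slit receptor gene Robo1 was 1.74-fold higher and the plexin gene Plxna2 1.68-fold lower.

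Outside these lists, the genes with the highest folds detected on both arrays were the neuronal splicing factor Rbfox1 at 6.59-fold and Cacna2d3, an auxiliary subunit of voltage-gated calcium channels, at 5.33-fold. Rbfox1 had signals of 10.43 in GFP low, 7.71 in GFP negative and 10.10 in GFP high cells. The growth factor gene Ptn was 4.98-fold higher, with 8.62 in GFP low, 6.30 in GFP negative and 6.93 in GFP high cells, so it was brightest in GFP low cells. Calb2, the calcium-binding protein calretinin, also peaked there, with 8.23, 5.97 and 7.09, and was 4.79-fold higher than in GFP negative cells by its brightest probe, with a second probe at 1.36 against 2.26. The sulfotransferase gene Chst8 was 4.76-fold higher and Rapgef5, an exchange factor of Rap GTPases, 4.42-fold. Of genes not detected in GFP negative cells, the GTPase gene Diras2 was at least 3.87-fold higher, 1600014C10Rik at least 2.95-fold and Kctd12, an auxiliary subunit of GABA-B receptors, at least 2.88-fold. Cttn, an actin-binding protein, was at least 3.37-fold higher by its brightest probe, but its other detected probes gave differences between 0.49 and 0.61.

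Factors that start neuronal differentiation did not follow the neuronal genes. Over 15 detected proneural and differentiation factors the median was 0.06, with 1 at least 2-fold higher and 0 lower. The proneural factor Neurog2 had signals of 11.29 in GFP low, 11.33 in GFP negative and 11.01 in GFP high cells. Neurod4 and Hes6 differed by 1.01-fold and 1.04-fold, and Insm1, a zinc finger factor of newly formed neurons, was 1.42-fold lower in GFP low cells. Myt1l, a factor of maturing neurons, was the member past 2-fold, at 3.49-fold, and its relative Myt1 was 1.98-fold higher.

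Progenitor genes were mostly lower in GFP low cells. Of 18 detected neural progenitor genes, 15 had a negative difference, 3 were at least 2-fold lower and 1, Ptn, at least 2-fold higher, with a median of -0.42. Slc1a3, the glutamate transporter of radial glia, had signals of 9.72 in GFP low, 11.05 in GFP negative and 7.81 in GFP high cells and was 2.50-fold lower in GFP low than in GFP negative cells. The intermediate filament gene Nes was 2.27-fold lower, with a second probe at -0.64 against -1.18. The patterning factors of motor neuron progenitors differed little: Olig2 by 1.12-fold, Olig1 by 1.15-fold and Nkx6-1 by 1.31-fold. Sox2 differed by 1.12-fold.

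The 15 detected Notch pathway genes had a median of -0.58 (-0.31 with bounds), with 2 at least 2-fold lower and 0 higher. The receptor Notch3 was 2.56-fold lower and Notch1 1.89-fold lower. The Notch targets Hes1 and Hes5, which are also in the progenitor list, were 2.27-fold and 1.90-fold lower, and the target Nrarp 1.86-fold lower. Among the ligands, Dll1 was 1.49-fold lower while Dll3 and Jag1 were 1.66-fold and 1.72-fold higher. Jag1 was brightest on the GFP low array, with 6.14 against 5.36 in GFP negative and 4.70, not detected, in GFP high cells. The 3 Hedgehog pathway genes detected on both arrays had negative differences and 0 were past 2-fold. The list median was -0.65 over 4 detected genes. The signal transducer Smo was 1.82-fold lower, the target genes Hhip and Ptch1 1.69-fold and 1.46-fold lower, and Gli1, Shh and Foxa2 were not detected on either array.

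Genes of dividing cells were mostly lower in GFP low cells, and few of them by 2-fold. All 20 detected DNA replication genes had a negative difference, from -0.98 to -0.28, with a median of -0.64 and 0 past 2-fold. Mcm5, a subunit of the replicative helicase, had signals of 11.01 in GFP low, 11.78 in GFP negative and 9.66 in GFP high cells. Cdc45, which activates that helicase, was 1.97-fold lower. Of 17 mitosis genes, 16 had a negative difference, from -1.64 for Kif15, and Ccna2, not detected in GFP negative cells, was the exception at 0.35, with a median of -0.55 and 2 at least 2-fold lower. The kinesin Kif15 was 3.12-fold lower, with 8.63 in GFP low, 10.28 in GFP negative and 6.88 in GFP high cells, and Birc5, a subunit of the chromosomal passenger complex, 2.11-fold lower. The kinase gene Cdk1, which drives entry into mitosis, was 1.47-fold lower. Cdk1 had signals of 8.61 in GFP low, 9.16 in GFP negative and 6.72 in GFP high cells. Mcm5, Kif15 and Cdk1 thus all stood between the other arrays in GFP low cells. Mcm5 and Cdk1 were nearer to GFP negative cells, and Kif15 was about midway. Genes of cell cycle exit had a median of 0.04 over 13 members, and the inhibitor gene Cdkn1c, which is also imprinted, was the 1 past 2-fold, 2.35-fold higher.

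Basement membrane genes differed in the other direction. Col4a1 had a signal of 6.29 in GFP low, 10.32 in GFP negative and 5.28 in GFP high cells, and Col4a2, its partner in the collagen trimer, 6.42, 9.84 and, not detected, 4.57. Col4a1 was 16.3-fold and Col4a2 10.7-fold lower in GFP low than in GFP negative cells. The genes lie head to head. In the RefSeq annotation of GRCm38.p6 the first base of the listed Col4a2 transcript is at 11312805 on the forward strand of chromosome 8 and that of Col4a1 at 11312826 on the reverse strand, so the transcripts overlap by 22 bases at their starts. The arrays' own annotation names no build, and no signal was read by position.

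Sparc, a collagen-binding matrix protein, had signals of 7.93 in GFP low, 10.92 in GFP negative and 6.22 in GFP high cells. It was 7.94-fold lower in GFP low than in GFP negative cells, with a second probe at -3.19 against -2.99. The nidogen gene Nid2, which links laminin to collagen, was 4.07-fold lower. The laminin chains Lamc1, Lama1 and Lamb2 were 3.37-fold, 3.16-fold and 2.03-fold lower. The collagen chaperone gene Serpinh1 was 2.09-fold lower and the perlecan gene Hspg2 2.01-fold lower. The integrins Itgb1, Itgav and Itga6, receptors of matrix, differed by 1.21-fold or less. Of 18 detected matrix genes, all detected on both arrays, 9 were past 2-fold on the lower side and 0 on the higher, and the median was -0.97. The summed linear signal of the 21 with a probe was 2453 in GFP low, 9517 in GFP negative and 1899 in GFP high cells.

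Embryonic globin genes were brightest in GFP negative cells. Hbb-y, a beta-like globin of primitive red cells, had a signal of 9.02 in GFP negative cells, 5.14 in GFP low cells, at the edge of detection, and 4.34, not detected, in GFP high cells. It was 14.7-fold lower in GFP low than in GFP negative cells, with a second probe at -4.26 against -3.87. The embryonic alpha-like gene Hba-x had 8.43 in GFP negative cells and was not detected in GFP low (4.46) or GFP high cells (4.57), so it was at least 9.89-fold lower. Hba-a1, an alpha globin of primitive and later red cells, was at least 8.72-fold lower, and Hbb-bh1, a second embryonic beta-like gene, at least 5.45-fold lower. Globin genes of a cluster are close copies, and Hba-a1 has a nearly identical neighbour, so their probes may share signal.

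The sequences just before the annotated starts of 3 globin genes, of the alpha and beta clusters, are shown as a description. Hbb-y was detected on both arrays compared. Hba-x and Hba-a1 were detected in GFP negative cells only, so their direction is no finding and no joint change of the clusters is shown. Each is the 150 bases that end 1 base before the start, 5′ to 3′ on the gene's own strand, from the RefSeq promoter table of GRCm38.p6, which holds 34 of the 47 genes named by size of difference or as markers. Capitals mark every match, on either strand, to the TATA box letters TATAAA, to the CCAAT box and to the letters CACCC, a core of erythroid promoter boxes. The windows are chr7:103853208-103853357 (reverse strand) for Hbb-y, chr11:32276450-32276599 (forward strand) for Hba-x and chr11:32283522-32283671 (forward strand) for Hba-a1.
Hbb-y: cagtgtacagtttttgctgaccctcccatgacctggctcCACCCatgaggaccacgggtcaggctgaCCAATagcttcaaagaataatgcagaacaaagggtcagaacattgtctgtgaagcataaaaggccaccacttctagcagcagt
Hba-x: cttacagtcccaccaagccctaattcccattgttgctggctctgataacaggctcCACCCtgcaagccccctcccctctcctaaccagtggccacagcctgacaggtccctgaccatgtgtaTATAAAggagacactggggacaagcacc
Hba-a1: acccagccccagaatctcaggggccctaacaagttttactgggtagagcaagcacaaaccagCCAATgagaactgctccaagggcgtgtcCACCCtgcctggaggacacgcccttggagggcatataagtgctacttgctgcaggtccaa
All 3 windows hold 1 CACCC match. Those of Hbb-y and Hba-a1 hold 1 CCAAT box, and that of Hba-x holds 1 TATA box match. No match overlaps another. Among 32851 promoter windows of 150 bases in the table, 37.4% hold the letters CACCC, 24.5% a CCAAT box and 7.57% the TATA box letters. The matches are a description only.

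The erythroid list did not extend beyond the globins. Of 12 erythroid genes with a probe, 4 were detected, all of them globin genes and all at least 2-fold lower in GFP low cells. Of these, 1, Hbb-y, was detected on both arrays and 3 in GFP negative cells only, and the list median of -3.78 became -0.34 with undetected genes kept in. The erythroid factors Klf1, Gata1, Gfi1b and Nfe2, the haem enzyme Alas2, the receptor Epor and the membrane proteins Epb42 and Slc4a1 were not detected on either array. The summed linear signal of the list was 90.5 in GFP low, 1365 in GFP negative and 162 in GFP high cells.

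Of 13 detected endoderm genes, 8 were detected in GFP negative cells only, so their direction is no finding, and 4 were detected on both arrays. Dab2, an endocytic adaptor of extraembryonic endoderm, had a signal of 5.80 in GFP low, 8.78 in GFP negative and 4.62, not detected, in GFP high cells, and was 7.88-fold lower in GFP low than in GFP negative cells. The endoderm factors Gata6 and Sox17 were detected in GFP negative cells only and were at least 5.73-fold and at least 2.34-fold lower. The pepsinogen gene Pga5 was at least 5.12-fold lower, Pth1r, a receptor expressed by parietal endoderm, 2.35-fold by its brightest probe, with others between -1.12 and -0.41 against -1.23, and Pdgfra, a receptor of primitive endoderm and mesenchyme, at least 3.14-fold. Of the genes detected on both arrays, Dab2 and Pth1r were past 2-fold, while Sox7 had a difference of -0.88 and Apoe one of -0.24. Over all 13, which the filter favours in this direction, the median was -1.12 (-0.88 with bounds), with 7 past 2-fold on the lower side (6 with bounds) and 0 on the higher. Gata4, Foxa2, Amn, Afp and Apoa1 were not detected on either array. The summed linear signal of the 21 genes with a probe was 397 in GFP low, 1569 in GFP negative and 301 in GFP high cells.

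The 10 detected epithelial genes, 4 of them detected on both arrays, had a median of -0.62 (-0.40 with bounds), with 3 past 2-fold on the lower side (2 with bounds) and 0 on the higher. The tight junction gene Cldn6 was at least 4.85-fold lower, and the keratins Krt8 and Krt18 2.60-fold and at least 1.62-fold lower. The list of fibroblasts, feeder cells and mesenchyme had 8 detected genes of 23, of which 5 were detected on both arrays, with 3 past 2-fold on the lower side, 0 on the higher and a median of -0.82, or -0.002 with undetected genes kept in. Col5a1, a fibrillar collagen chain, was 3.24-fold lower, while the others detected on both arrays ran from -0.97 for Fbln1 to 0.19 for Loxl1. The smooth muscle actin gene Acta2 was at least 2.14-fold lower by its brightest probe, with others between -0.74 and -0.64 against -1.60. Pdgfra, given above among endoderm genes and detected in GFP negative cells only, was the other gene past 2-fold. The summed signal of that list was 944 in GFP low, 1830 in GFP negative and 755 in GFP high cells, while Col1a1, Col1a2, Col3a1, Thy1 and Pdgfrb, defining genes of fibroblasts and of feeder cells made from them, were not detected on either array. Of 11 endothelial genes, 3 were detected and 1, Flt1, was past 2-fold, at least 1.63-fold lower by its bound. The part of any of these cell types in the differences was not tested.

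Some of the genes farthest apart are known from other tissues. Prf1, the pore-forming protein of cytotoxic lymphocytes, was 4.86-fold lower in GFP low cells and Slc11a1, a metal transporter of macrophage phagosomes, 3.66-fold lower. Both were detected on all 3 arrays, while 0 of 9 immune and macrophage genes with a probe were detected on either array compared. Fabp3, Cox6a2 and Myl3, known from heart muscle, were 3.84-fold, 3.76-fold and at least 3.40-fold lower. Of 10 muscle genes with a probe, 3 were detected and 0 were past 2-fold, with a median of -0.03. The heparan sulfate sulfotransferase gene Hs3st1 was 7.15-fold lower, with 6.38 in GFP low, 9.22 in GFP negative and 6.29 in GFP high cells. Erich5 was 5.39-fold lower, the X-linked homeobox gene Rhox5, a gene of extraembryonic tissue, 4.57-fold, S100a1, a calcium-binding protein, 4.22-fold and the lysosomal protease gene Ctsh 4.19-fold.

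**Figure D4:**
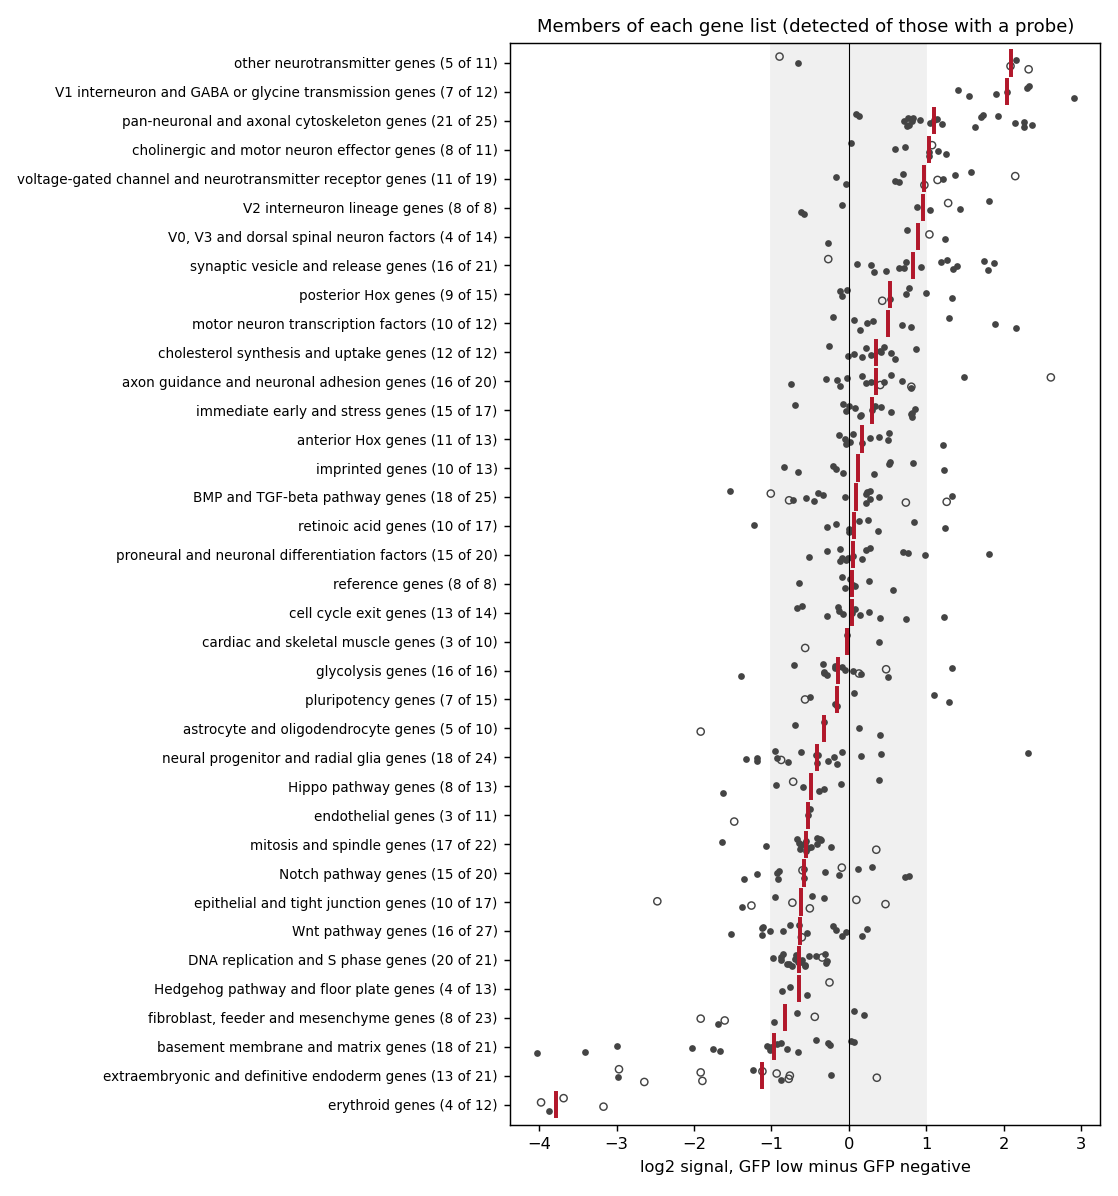
Difference in log2 signal, GFP low minus GFP negative (horizontal axis), of the detected members of each gene list with at least 3 of them, 1 point per gene, open where the gene was detected on only 1 of the arrays. Red bars are list medians and the grey band spans less than 2-fold; the V1 and GABA list lies wholly to the right of the band and the erythroid list, all globins, wholly to the left.

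Of the signalling lists, Wnt pathway genes had the most members past 2-fold. There were 5 of 16 on the lower side and 0 on the higher, and the median was -0.63. The ligand Wnt7b had signals of 8.96 in GFP low, 10.47 in GFP negative and 7.43 in GFP high cells and was 2.86-fold lower in GFP low than in GFP negative cells. Its relative Wnt7a was 2.17-fold lower, the transcription factors Tcf7l1 and Tcf7l2 2.19-fold and 2.16-fold and the receptor Fzd7 2.02-fold. The feedback target Axin2 went slightly the other way, at 1.17-fold higher.

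Genes of the BMP and TGF-beta pathway had a median of 0.09 over 18 members, or 0.01 with bounds, and split both ways. The BMP target Msx1 was 2.51-fold higher, with 9.35 in GFP low, 8.02 in GFP negative and 7.76 in GFP high cells, and the ligand Bmp7 at least 1.51-fold higher. Fst, the activin-binding inhibitor follistatin, was 2.90-fold lower, the receptor Tgfbr2 at least 1.91-fold lower and the target Id1 1.66-fold lower. In the Hippo pathway, 7 of 8 detected genes had a negative difference and 1 was at least 2-fold lower, with a median of -0.49. That gene was Yap1, the coactivator of the pathway, at 3.09-fold, with 6.75 in GFP low, 8.38 in GFP negative and 4.52, not detected, in GFP high cells.

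Hox genes, which set head-to-tail identity, had few members past 2-fold. Anterior Hox genes had a median of 0.17 over 11 members, with 1 past 2-fold, Hoxb1 at 2.31-fold higher. Posterior Hox genes had a median of 0.53 over 9 members, with 6 above 0, 3 below 0 and 1 detected in GFP low cells only. With undetected genes kept in, that median was 0.05, against 0.07 for anterior Hox genes. The 1 posterior gene past 2-fold was Hoxc6 at 2.51-fold higher, followed by Hoxb8, Hoxc9 at 1.71-fold and Hoxb7 at 1.67-fold. Of 10 retinoic acid genes, 1 was at least 2-fold higher, the binding protein Crabp1 at 2.36-fold, and 1 at least 2-fold lower, Cyp26a1, which breaks down retinoic acid, at 2.33-fold, with a median of 0.07.

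The remaining lists held few genes past 2-fold. Of 7 detected pluripotency genes, Esrrb and Lin28a were 2.46-fold and 2.15-fold higher and the median was -0.16, while Pou5f1, Nanog and Zfp42 were not detected on either array. Of 16 glycolysis genes, with a median of -0.14, the neuronal enolase gene Eno2 was 2.52-fold higher, while Hk2, a hexokinase, was 2.62-fold lower. Cholesterol synthesis genes had a median of 0.34 with 10 of 12 above 0, and immediate early and stress genes a median of 0.30 with 12 of 15 above 0, both with 0 past 2-fold. Fos, an immediate early gene, was 1.75-fold higher and Dusp1 1.80-fold. Imprinted genes had a median of 0.12 over 10 members, with only Cdkn1c past 2-fold. Of 5 detected glial genes, with a median of -0.32, only Pdgfra was past 2-fold. Pdgfra was detected in GFP negative cells only and is also counted in the endoderm and fibroblast lists. The single detected gene of the 4 neural crest genes with a probe was Tfap2b, at least 1.92-fold higher by its brightest probe, with others between 0.23 and 0.93 against 1.36.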

How the data were processed

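Total RNA was amplified to biotin-labelled RNA and hybridised to an Illumina mouse bead array of 25697 probes, per the labels' protocols and the probe annotation. The authors deposited 1 non-normalized linear intensity per probe and array, with a detection p-value beside it, per the file headers. GenomeStudio is named per the submitters' processing notes. A second table of the authors, also of linear intensity and with a floor of 10, served as an alternative. The sources used here give neither its normalization nor the version of GenomeStudio.

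The 3 arrays went through limma's neqc steps (limma 3.58.1, R 4.3.3): normexp background correction with parameters read from the detection p-values, an offset of 16, quantile normalization and log2. The offset draws folds of dim genes toward 1. Later steps used Python 3.11.15, pandas 2.3.3 and numpy 2.4.6. The normalization was tried on simulated data with a normal background near that fitted here and changes placed only in probes well above background. That trial does not show how well folds of dim genes are recovered. The platform annotation gave 1 symbol for 23978 probes, several for 0 and none for 1719. The probe with the highest mean signal over the 3 arrays stands for its gene.

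Groups were taken from the labels. Named are Mnx1 and the markers En1, Gad1 and Col4a1, the 15 genes farthest apart in each direction among those detected on both arrays, the 8 with the largest bound in each direction, and members of 39 gene lists at least 2-fold apart or with a role described. The members and lists were chosen with earlier results of these data known. Alternatives changed the background correction, offset, normalization, arrays, detection filter, probe rule and starting table. With 1 array a population the number of arrays limits the precision.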

Additional observations from a re-analysis of the deposited data

How the results depend on the processing

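The counts of 287 genes at least 2-fold higher and 228 lower depended on how dim signals were treated. They were 92 and 69 without normexp, 165 and 107 with an offset of 50, and 510 and 542 in the authors' value table, where higher genes were 48.5% of the calls against 55.7%. Under the other alternatives the counts ran from 226 to 314 higher and from 166 to 245 lower, and median scaling put the higher share at 60.2%. No gene called in one direction was called in the other under any of the 11 alternatives. Alternatives that changed only the detection filter reuse the same differences, and the bound turns a reversed value into 0. An opposite call was therefore not possible under these. The 123 named genes at least 2-fold apart gave 1325 values under alternatives, 0 of them with the other sign and 1210 still at least 2-fold. Part of that was fixed in advance, because a changed detection filter leaves each difference as it was. Such values were 123 of 123 without the filter, 123 of 123 at a p-value under 0.05 and 95 of 95 with detection on both arrays. Fewest were still at least 2-fold without normexp (70 of 123), then with an offset of 50 (98) and with the mean of probes (100). List medians, those of 3 families chosen after seeing the data included, moved by less than the between-probe SD in 394 cases and by more in 55. The median of glial genes turned from -0.317 to 0.005 when undetected genes were kept in, which adds genes near background. Within the between-probe SD, the medians of proneural (-0.011), muscle (0.045) and BMP genes (-0.001) also crossed 0 under that setting, as did that of reference genes (-0.104) with the mean of probes. The muscle median also crossed 0 with median scaling and with detection on both arrays (0.176). The V1 and GABA median ran from 1.48 to 2.33 and that of matrix genes from -1.16 to -0.58. Lists with few detected members moved toward 0 when undetected genes were kept in, among them erythroid genes from -3.78 to -0.34, fibroblast genes from -0.82 to -0.002, other neurotransmitter genes from 2.09 to 0.20, neural crest genes from 1.36 to 0.14 and nicotinic receptor genes from 1.39 to 0.05. No paired analysis was possible because each group has 1 array. Signal over background limits dim genes such as Mnx1, Chat and En1 in GFP negative cells.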

Other observations

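Gene families chosen after their values were seen add to these differences and are given as values. Replication-dependent histone genes, which supply histones in S phase, were taken by symbol, a match that also takes in H1f10, a linker histone gene outside the clusters. They were lower in GFP low than in GFP negative cells in 35 of 41 detected members. Among the 6 above 0, second probes of H3c14, H2bc18 and H1f10 gave -1.49, -1.03 and -0.15, against 0.08, 0.05 and 0.16. Past 2-fold there were 23 on the lower side (22 with bounds) and 1, H1f2, on the higher, and the median log2 difference was -1.05. H2ac11 had signals of 9.06 in GFP low, 10.80 in GFP negative and 6.82 in GFP high cells. The copies are nearly identical, so their probes cannot be taken as separate. Genes of cytosolic ribosomal proteins differed little but mostly one way, with 45 of 55 below 0 and 0 past 2-fold. Their median of -0.28 was within the between-probe SD, against a median of -0.02 over all genes. The match by symbol also takes in the paralogs Rpl7l1, Rpl22l1 and Rps27l.

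Of 16 subunit genes of nicotinic acetylcholine receptors with a probe, 6 were detected, all on both arrays, with 4 at least 2-fold higher in GFP low cells, 0 lower and a median of 1.39. Over all 16 the median was 0.05. Besides Chrnb2 and Chrna3 these were Chrna5 at 2.79-fold and Chrnb4 at 2.67-fold, which with Chrna3 form 1 gene cluster in the mouse. Chrnb1, a subunit of the muscle receptor, differed by 1.04-fold.

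Some genes had their highest signal of the 3 arrays in GFP low cells, by margins that share the single GFP low array. Beside Slc17a6, Ptn, Gata3 and Msx1, Nrn1, a neurite growth protein, had 7.17 in GFP low, 5.49 in GFP negative and 5.06, not detected, in GFP high cells. Islr2 had 11.29, 9.45 and 9.77 in GFP low, negative and high cells, and the peptide gene Cartpt 9.56, 7.48 and 8.29, with a second probe of Cartpt at 2.13 against 2.08 for GFP low minus GFP negative. Spon2, a secreted matrix protein, was dimmest in GFP low cells, with 6.15 against 7.96 in GFP negative and 7.79 in GFP high cells. Tenm3 was dimmest there too by its brightest probe, at -1.23 against GFP negative cells, but its other probe gave 0.32.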
